A study of Drosophila melanogaster with 28 samples.

Results

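The genes described here are 10 Drosophila genes of glia: repo, gcm, Eaat1, Eaat2, Gs2, moody, Gli, nrv2, loco and wrapper. They were found by symbol among the 17558 genes of the count table for embryos of 14-16 h and the 17753 genes of the table for embryos of 16-18 h, and all 10 were present in both. They were listed for their known roles in glia. All 10 also passed the filter on low counts at both ages, so each was tested in every comparison.

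Glia are the non-neuronal cells of the nervous system. In the fly embryo the transcription factor Gcm switches precursors to the glial fate, and the homeodomain factor Repo, which is made in all glia other than those of the midline, then maintains it. As the embryo matures, glia take up and recycle neurotransmitter, ensheath axons and seal the nerve cord with septate junctions, which make the blood-brain barrier.

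The study sequenced messenger RNA of whole embryos mutant for chromatin regulators and transcription factors. Embryos of 14-16 h gave 4 libraries each for nej3, nejEP1179 and the control w1118. At 16-18 h there were 2 libraries of Dfd1, 3 of ez731, 2 of psce22, 3 of psch27, 3 of SppsG8810 and 3 of w1118. The mutants are alleles of nej, the fly CBP/p300 acetyltransferase, of the Hox gene Dfd, of the Polycomb genes E(z) and Psc, and of Spps, whose zinc finger protein binds DNA at Polycomb response elements. Mutant embryos came from stocks kept heterozygous over GFP-marked balancers, and small pools were picked by hand for shape and lack of GFP. Such mothers can supply normal product to the egg, and the age used for nej was one at which the study describes maternal CBP as used up. Each library is therefore a pool of whole embryos, and fewer glial cells cannot be told apart from less RNA per glial cell. The study describes the libraries of a genotype as biological replicates.

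Total counts per library were 13129082 to 21509453 at 14-16 h and 17940038 to 22354257 at 16-18 h. Levels are CPM, counts divided by the library's total and scaled to 1e6, and changes are log2 fold changes with the standard error of the edgeR fit. A change was called when its adjusted p was under 0.05.

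At 16-18 h the sample labels were at odds with the data. The mean normalised counts that the authors deposited for ez731 were those of the columns labelled psce22 plus psch27 replicate 1. Those deposited for psce22 were those of psch27 replicates 2 and 3, those for psch27 were of the columns labelled SppsG8810, and those for SppsG8810 were of the columns labelled ez731. Only the Dfd1, nej3 and nejEP1179 tables matched columns of their own name. Psc stood at 313 to 337 CPM in the libraries labelled SppsG8810 and at 117 and 124 CPM in psch27 replicates 2 and 3. It stood at 18.2 CPM in psch27 replicate 1, 19.9 and 22.3 CPM in the libraries labelled psce22, and 24.1 to 31.6 CPM in w1118. E(z) was lowest in the same 3 libraries, at 15.7 CPM in psch27 replicate 1 and 15.9 and 14.5 CPM in psce22, with 19.4 to 21.9 CPM in the libraries labelled ez731 and 23.1 to 25.2 CPM in w1118. By chi-square per degree of freedom, psch27 replicate 1 stood at 139 and 118 from replicates 2 and 3, which stood at 8.11 from each other. The groups of 16-18 h are therefore called by label throughout, and psch27 replicate 1 was left out as a check. The main fit kept it in the labelled psch27 group. The psch27 results thus rest on mixed libraries, and all calls of 16-18 h on a shared estimate of spread that includes it.

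The transcripts of 3 glial genes overlap exons of a neighbour on dm6, and the strand used in counting was not stated. The exons of repo (FBgn0011701, 3R 18236192 to 18239602, plus strand) share 183 bp, 6.11% of their length, with CG7156 on the other strand, and CG7156 did not pass the test in any of the 7 comparisons with w1118. The exons of gcm (FBgn0014179, 2L 9579498 to 9581745, minus strand) share 128 bp with CG31709, which averaged at most 0.0268 CPM in nej3 and 0 CPM in w1118 of both ages. Those of loco (FBgn0020278, 3R 22619968 to 22639387, minus strand) share 1032 bp, 13.5% of their length, with asRNA:CR43474, which averaged at most 0.321 CPM in any group. The other 7 genes share no exon with a neighbour: Eaat1 (FBgn0026439, 2L 9333567 to 9341925), Eaat2 (FBgn0026438, 2L 737212 to 744395), Gli (FBgn0001987, 2L 15756002 to 15762758), nrv2 (FBgn0015777, 2L 6789770 to 6798862), Gs2 (FBgn0001145, X 11422832 to 11430197), moody (FBgn0025631, X 2044292 to 2050120) and wrapper (FBgn0025878, 2R 22379637 to 22382675).

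In w1118 embryos the genes of transmitter recycling were much higher at the later age, while the fate gene gcm was lower. The ages were counted in separate tables, so these levels are set side by side without a test. Eaat1, the glutamate transporter of astrocyte-like and other glia, had 247, 227 and 207 CPM at 16-18 h, against 29.9, 23.9, 24.3 and 13.5 CPM at 14-16 h. The later mean was 9.92 times the earlier, and the ages did not overlap. Gs2, a glutamine synthetase that converts the glutamate taken up, had 343, 305 and 285 CPM at 16-18 h, against 68.1, 62.0, 63.1 and 60.8 CPM at 14-16 h, a ratio of 4.90. Eaat2, a transporter of aspartate and taurine, had 49.9 ± 1.91 CPM (SD, n = 3) at 16-18 h and 25.3 ± 1.49 CPM (SD, n = 4) at 14-16 h. All libraries of the later age lay above all of the earlier for these 3 genes, and also for moody and nrv2. For gcm, loco and wrapper they all lay below. The share of all genes that separate in this way was not counted.

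The levels of gcm were low at both ages, at 2.87 ± 0.26 CPM at 16-18 h and 6.25 ± 0.542 CPM at 14-16 h, a ratio of 0.46. The G-protein regulator loco, which acts with the receptor Moody, had 82.4 ± 6.03 CPM at 16-18 h and 125 ± 3.77 CPM at 14-16 h, a ratio of 0.661. The midline glia gene wrapper, an immunoglobulin-domain protein that holds axons to the glia around them, had 32.9 ± 1.53 CPM at 16-18 h and 39.8 ± 2.10 CPM at 14-16 h. The remaining glial genes stood close to 1: the ratio was 1.06 for repo, 1.04 for the junction gene Gli, and 1.18 for both the receptor gene moody and the sodium pump subunit gene nrv2.

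**Figure D1:**
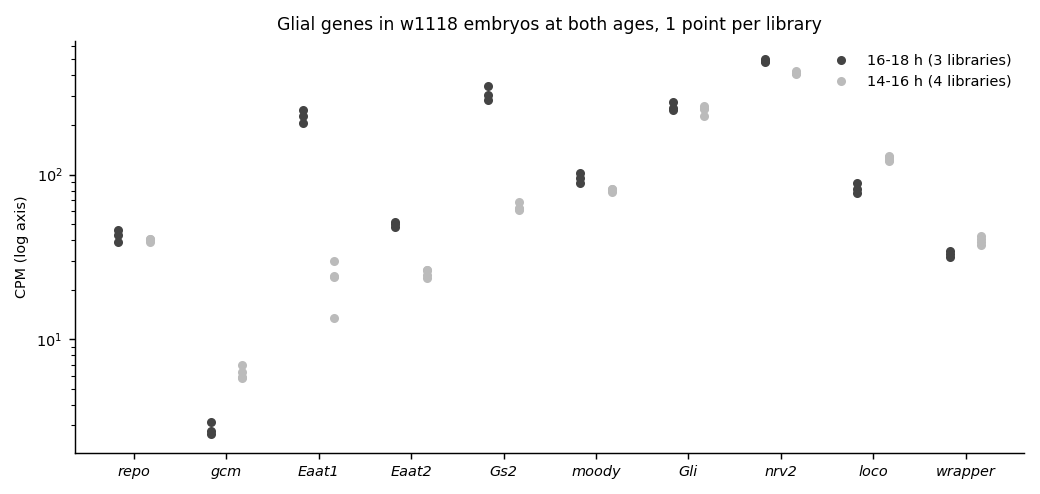
Levels of the 10 glial genes in w1118 embryos, in CPM on a log axis, with 1 point per library (dark, 3 libraries of 16-18 h; pale, 4 libraries of 14-16 h). Eaat1 and Gs2 lie well apart, with later means 9.92 and 4.90 times the earlier, while repo and Gli lie close together.

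Per kilobase of exon, the order of the glial genes differed between the ages. At 16-18 h Gs2 and nrv2 led with 139 ± 13.3 and 137 ± 2.80 CPM per kb, which did not differ beyond their spread, and Eaat1 followed with 72.4 ± 6.28. Then came Gli at 57.9 ± 3.66 and moody at 24.2 ± 1.55, with wrapper, repo, Eaat2 and loco between 16.7 and 10.7 CPM per kb. At 14-16 h nrv2 led alone with 116 ± 2.03 CPM per kb, followed by Gli with 55.5 ± 3.17 and Gs2 with 28.5 ± 1.43. Eaat1 was near the end of that order with 7.30 ± 2.18 CPM per kb, within its spread of Eaat2 at 6.33 ± 0.373, and gcm was last at both ages, with 1.32 ± 0.12 at 16-18 h and 2.87 ± 0.25 at 14-16 h. Gli and nrv2 also function in the septate junctions of epithelia, so their level in whole embryos is not that of glia alone.

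In nej3 embryos the glial factor repo was lower than in w1118 while the other 9 glial genes did not pass the test. Repo had 27.2, 24.2, 25.8 and 27.3 CPM in nej3, against 39.0, 40.6, 40.4 and 39.9 CPM in w1118. Every nej3 library lay well below every control library, and repo fell by 0.58 on the log2 scale (SE 0.05, adjusted p = 7.6e-07). It was the only call among the 10 genes, where 24.0% of all 10397 genes tested were called. The median log2 change of the 10 genes was -0.06, against -0.01 over all genes tested. Repo kept its call in every alternative fit.

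Gcm, which acts upstream of repo, had 7.26, 6.96, 7.97 and 8.69 CPM in nej3, against 5.80, 6.98, 6.32 and 5.88 CPM in w1118, groups that just overlapped. Its log2 change of 0.34 ± 0.15 did not pass (adjusted p = 0.12), though it did with only the groups compared (adjusted p = 0.033). Eaat1 was divided within nej3, with 10.3 and 9.42 CPM in replicates 1 and 3 and 22.5 and 20.0 CPM in replicates 2 and 4, against 13.5 to 29.9 CPM in w1118. The log2 change of Eaat1 was -0.52 ± 0.34 (adjusted p = 0.32). The same replicates 1 and 3 had the higher levels of loco, at 142 and 145 CPM, with 120 and 124 CPM in replicates 2 and 4 and 121 to 129 CPM in w1118. They also had the lower levels of Eaat2, 22.0 and 19.9 CPM against 27.6 and 25.7 CPM, and of moody, 73.2 and 70.1 CPM against 77.7 and 79.2 CPM. The other genes had log2 changes from -0.10 ± 0.04 for nrv2 (adjusted p = 0.093) to 0.13 ± 0.05 for loco (adjusted p = 0.11). All 4 nej3 libraries were below all controls in nrv2, which passed with DESeq2 (adjusted p = 0.047) and with total-count scaling (adjusted p = 0.022), and loco passed without nej3 replicate 2 (adjusted p = 0.041).

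In nejEP1179 embryos repo was also lower, by less than in nej3, and Gs2 was higher. Repo had 34.4, 30.7, 33.5 and 32.2 CPM in nejEP1179, against 39.0 to 40.6 CPM in w1118. No library overlapped, and repo fell by 0.25 on the log2 scale (SE 0.05, adjusted p = 0.0024). Gs2 had 77.2, 91.4, 94.7 and 75.9 CPM in nejEP1179, against 68.1, 62.0, 63.1 and 60.8 CPM in w1118. Every nejEP1179 library was above every control library, with a log2 change of 0.46 ± 0.07 (adjusted p = 0.00015). These 2 calls of 10 compare with 24.9% of all genes called. Wrapper was just outside the threshold, with 36.8, 35.2, 34.4 and 33.7 CPM in nejEP1179 against 37.4 to 42.3 CPM in w1118 (a log2 change of -0.14 ± 0.05, adjusted p = 0.053), and it passed without w1118 replicate 2 (adjusted p = 0.041) and with total-count scaling (adjusted p = 0.024). The remaining 7 genes had log2 changes from -0.05 for Eaat1 and nrv2 to 0.20 ± 0.09 for Eaat2 (adjusted p = 0.12, and 0.030 with only the groups compared). Moody and Gli, at 0.02 and 0.01, changed sign when libraries were scaled by their total count.

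The 2 alleles of nej differed from each other in repo and Gs2. Repo averaged 26.1 ± 1.48 CPM in nej3 and 32.7 ± 1.60 CPM in nejEP1179 (SD, n = 4 each; log2 change -0.33 ± 0.05, adjusted p = 0.00088). Gs2 had 54.7 to 62.3 CPM in nej3 and 75.9 to 94.7 CPM in nejEP1179 (log2 change -0.55 ± 0.07, adjusted p = 0.00011). These were the only 2 calls of 10, where 9.30% of all genes were called. The RNA of nej itself stood at 227 to 250 CPM in nej3, 355 to 514 CPM in nejEP1179 and 236 to 263 CPM in w1118. Only nejEP1179 thus lay apart in nej, and the part of this in the differences of repo and Gs2 was not tested. Gs2 lies on the X chromosome, as does nej. The male-specific X-linked transcript lncRNA:roX1 averaged 632 ± 26.2 CPM in nej3, 639 ± 62.6 CPM in nejEP1179 and 564 ± 98.6 CPM in w1118. For lncRNA:roX2, also male-specific, the averages in this order were 16.0 ± 0.463, 18.0 ± 1.79 and 19.3 ± 3.25 CPM. Libraries of the groups overlapped in both transcripts. The part of sex in the level of Gs2 was not tested.

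**Figure D2:**
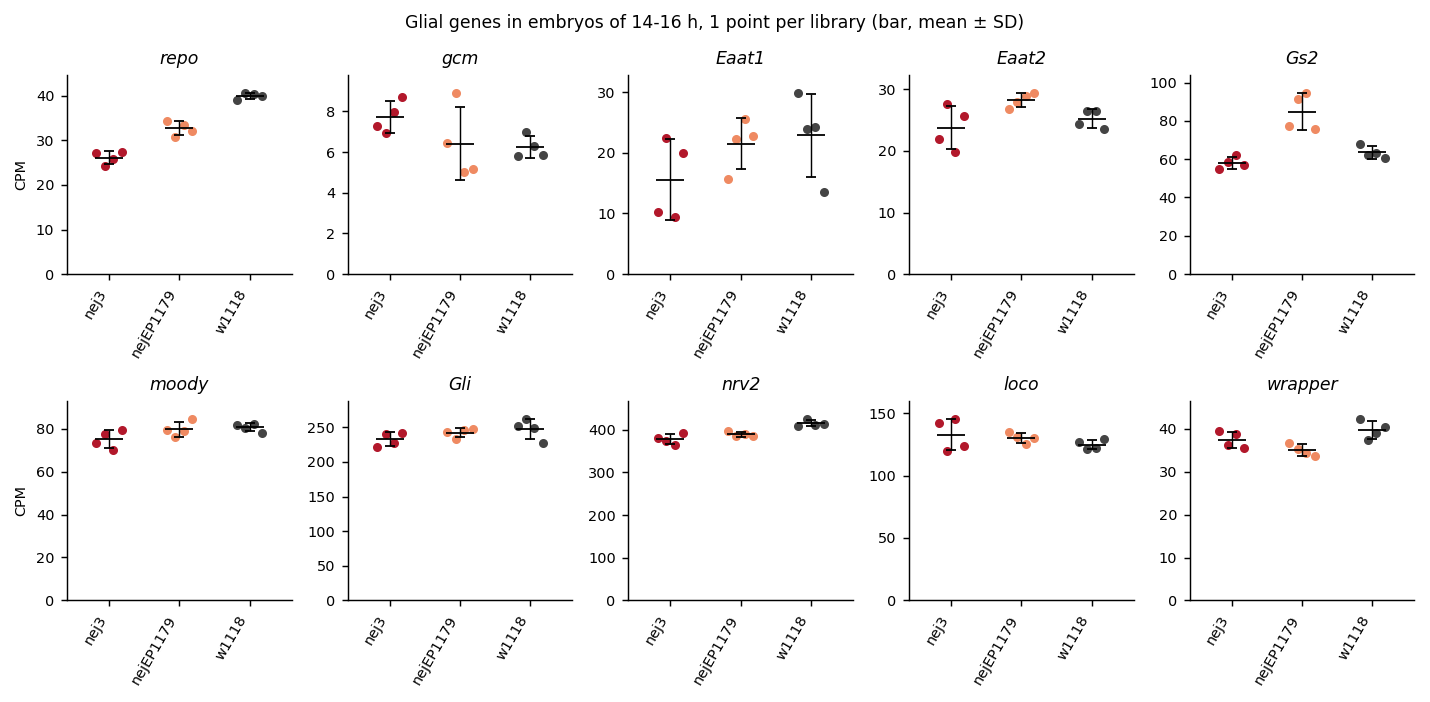
Levels of the 10 glial genes in embryos of 14-16 h, in CPM from 0, with 1 point per library of nej3, nejEP1179 and w1118 (4 each) and bars for mean ± SD. Repo is ordered nej3, nejEP1179, w1118 from low to high without overlap, Gs2 is highest in nejEP1179, and Eaat1 is divided within nej3.

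Some markers of muscle, blood cells and trachea were called in the nej mutants. Of all genes, 24.0% were called in nej3 and 24.9% in nejEP1179. Of 8 muscle genes, 5 rose and 0 fell in nej3 (62.5%, against 24.0% of all genes), with sums of 28300 to 31900 CPM in nej3, 27000 to 30000 CPM in nejEP1179 and 26100 to 28000 CPM in w1118. All nej3 sums lay above all control sums. In nejEP1179, 2 muscle genes rose and 0 fell (25%), near the share of all genes. Of 6 tracheal genes, 2 rose in nej3 (33.3%) and 3 in nejEP1179 (50%), with 0 lower. Of 13 neuronal genes, 2 fell and 0 rose in nej3 (15.4%), namely the glutamate and acetylcholine neuron genes VGlut and ChAT. The 13 genes summed to 1970 to 2390 CPM in nej3, 2320 to 2800 CPM in nejEP1179 and 2150 to 2440 CPM in w1118. In nejEP1179, 3 neuronal genes rose and 1 fell (30.8%). Gcm also acts in blood cells, the haemocytes, whose genes summed to 6760 to 8080 CPM in nej3, 7550 to 8910 CPM in nejEP1179 and 7070 to 8150 CPM in w1118. The haemocyte sums of both mutants overlapped those of w1118. Of 9 haemocyte genes tested, 3 fell and 1 rose in nej3 (44.4%) and 2 fell and 1 rose in nejEP1179 (33.3%). PPO1, a crystal cell gene, stood at -0.43 ± 0.07 in nej3 and -0.61 ± 0.07 in nejEP1179. The part of these cell types in the level of repo was not tested.

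Around the 10 genes, the genes of glial growth and engulfment that passed in the nej mutants all rose. This list was called at 41.7% in both mutants, where 24.0% of all genes were called in nej3 and 24.9% in nejEP1179. Of 6 further regulators of glial fate, ttk, a repressor of neuronal genes, rose by 0.54 ± 0.05 (adjusted p = 1.3e-06) and pnt, an ETS factor downstream of receptor tyrosine kinases, fell by 0.16 ± 0.06 (adjusted p = 0.044) in nej3. In nejEP1179 ttk alone was called, with a rise of 0.46 ± 0.05 (adjusted p = 8.7e-06). Of 12 genes of glial growth and engulfment, 5 rose and 0 fell in nej3 and likewise in nejEP1179, among them the FGF receptor htl with 0.37 ± 0.05 in nej3 and 0.35 ± 0.05 in nejEP1179, and the engulfment receptor drpr with 0.29 ± 0.04 in nej3 and 0.28 ± 0.04 in nejEP1179. The median log2 change of this list was 0.16 in nej3 and 0.11 in nejEP1179, against -0.01 and 0 over all genes. These are levels of whole embryos, so they need not be those of glia. The part of other tissues in them was not tested.

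Of 10 genes of glial transport and metabolism that were tested, the cotransporter gene Ncc69 rose by 0.30 ± 0.07 in nej3. In nejEP1179 Ncc69 rose by 0.47 ± 0.07 and the astrocyte gene alrm by 0.33 ± 0.05. Of 18 septate junction genes, 1 rose and 1 fell in nej3, bou and Lac, and 4 rose and 1 fell in nejEP1179. Of the 6 genes of Moody signalling, the G-protein subunit gene Galphai rose by 0.17 ± 0.04 and Gbeta13F fell by 0.15 ± 0.05 in nej3, while the kinase subunit gene Pka-C1 rose by 0.30 ± 0.06 in nejEP1179. As shares called, junctions stood at 11.1% in nej3 and 27.8% in nejEP1179, transport at 10% and 20%, and regulators and Moody signalling at 33.3% each in nej3 and 16.7% each in nejEP1179, on both sides of the share of all genes.

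Close relatives of the glial genes were looked at for the same comparisons. In nej3, Tre1, the receptor gene most like moody, fell by 0.24 ± 0.05 (adjusted p = 0.0014), and nrv3, a neuronal pump subunit gene like nrv2, fell by 0.42 ± 0.10 (adjusted p = 0.0083). The other 3 relatives, gcm2, Gs1 and nrv1, did not pass in nej3, and in nejEP1179 0 of the 5 relatives passed with edgeR (Tre1 alone had an unadjusted p under 0.05), with log2 changes from -0.15 ± 0.10 for nrv3 to 0.09 ± 0.05 for nrv1. The call of Gs2 in nejEP1179 thus stood beside 0.04 ± 0.05 for Gs1 (adjusted p = 0.60).

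The comparisons of 16-18 h all used the same 3 w1118 libraries, so their changes are not independent of each other. These controls differed from every mutant group in lncRNA:roX1, with 818 to 877 CPM in w1118 and 200 to 503 CPM over the 13 mutant libraries. Its part in the levels of the glial genes, of which Gs2 and moody are X-linked, was not tested.

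In embryos labelled Dfd1, 6 of the 10 glial genes fell and loco rose, where 52.5% of all 11366 genes tested were called, 27.0% as lower and 25.5% as higher. The largest fall was that of Eaat1, with 82.4 and 73.6 CPM in Dfd1, against 247, 227 and 207 CPM in w1118. Both Dfd1 libraries were below all controls, with a log2 change of -1.71 ± 0.15 (adjusted p = 3.7e-06). Repo had 29.4 and 29.3 CPM in Dfd1, against 38.8, 45.8 and 42.7 CPM in w1118 (a log2 change of -0.69 ± 0.09, adjusted p = 7.5e-05). Moody, the receptor that controls the septate junctions of the blood-brain barrier, had 80.1 and 85.8 CPM in Dfd1, against 95.2, 102 and 89.3 CPM in w1118 (a log2 change of -0.36 ± 0.07, adjusted p = 0.00082). Loco had 113 and 123 CPM in Dfd1, against 77.1, 89.0 and 81.3 CPM in w1118 (a log2 change of 0.36 ± 0.12, adjusted p = 0.027). Of these, Eaat1, repo and moody lay below all controls and loco above them.

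The falls of Gli, nrv2 and wrapper in Dfd1 were small and rested on the scaling. Gli had 219 and 256 CPM in Dfd1, against 245, 277 and 254 CPM in w1118 (a log2 change of -0.28 ± 0.08, adjusted p = 0.010), nrv2 had a log2 change of -0.20 ± 0.07 (adjusted p = 0.028) and wrapper of -0.30 ± 0.08 (adjusted p = 0.0087). In CPM all 3 overlapped the controls, and scaled by total count none passed, at -0.12 for Gli, -0.04 for nrv2 and -0.14 for wrapper, with the median of all genes at 0.18. The remaining genes gcm, Eaat2 and Gs2 had log2 changes of -0.19, -0.20 and -0.22 and did not pass. Over the 10 genes the median log2 change in Dfd1 was -0.25, against 0.02 over all genes tested. With only the groups compared Gli (adjusted p = 0.055) and nrv2 (adjusted p = 0.065) were lost. The call of loco was lost without Dfd1 replicate 2 (adjusted p = 0.15), w1118 replicate 1 (adjusted p = 0.082) or w1118 replicate 3 (adjusted p = 0.069). Without Dfd1 replicate 1 the count of calls was 4, and without psch27 replicate 1 it was 9, Eaat2 (adjusted p = 0.025) and Gs2 (adjusted p = 0.044) having joined it as lower in Dfd1.

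Markers of some other cell types also moved in the Dfd1 libraries. Eggshell and yolk genes, which belong to the ovary and mother, summed to 1190 and 4040 CPM in Dfd1, against 7.84 to 29.6 CPM in w1118. Of 8 muscle genes 7 fell and 0 rose (87.5%, against 27.0% of all genes called lower). Muscle sums were 35000 and 37200 CPM in Dfd1 and 42700 to 44000 CPM in w1118. Of 10 haemocyte genes 5 fell and 0 rose (50%, against 27.0% of all genes called lower). Haemocyte sums were 6390 and 6840 CPM in Dfd1 and 11600 to 14100 CPM in w1118. Neuronal genes summed to 2340 and 2600 CPM in Dfd1 and 2310 to 2550 CPM in w1118. Of the 13, 3 fell and 0 rose (23.1%, against 27.0% of all genes called lower). Of 6 tracheal genes 5 fell and 0 rose (83.3%, against 27.0% of all genes called lower). Tracheal sums were 4520 and 5100 CPM in Dfd1 and 4000 to 4590 CPM in w1118. Of 6 neuroblast genes 3 rose and 2 fell (83.3%, against 52.5% of all genes called). The part of these in the falls of the glial genes was not tested.

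The wider glial lists in Dfd1 held more falls than rises in transport. Of 10 genes of transport and metabolism, 6 fell and 1 rose, with a median log2 change of -0.39, so that 70% were called against 52.5% of all genes. The astrocyte gene alrm fell by 0.54 ± 0.07 (adjusted p = 8.5e-05), Mdr65, an efflux pump of the blood-brain barrier, by 0.92 ± 0.16 (adjusted p = 0.0004), and ebony (e), which conjugates transmitters in glia, by 1.69 ± 0.32 (adjusted p = 0.0011). Of 18 septate junction genes, 4 fell and 1 rose, a share of 27.8% that was below that of all genes, with cora at -0.57 ± 0.07 and scrib at -0.93 ± 0.21. Of 12 growth and engulfment genes, 5 fell and 3 rose (66.7%), with klg at -0.80 ± 0.08. Among 6 regulators (33.3% called) pnt fell by 0.73 ± 0.08 and retn rose by 0.75 ± 0.13. Among 6 Moody signalling genes (50% called) Galphai rose by 0.62 ± 0.08, Gbeta13F rose and Ggamma1 fell. Of the 5 relatives (40% called), Tre1 rose by 0.35 ± 0.07 and nrv1 fell by 0.22 ± 0.09.

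In the libraries labelled ez731 repo was again lower, with the rest of the glial genes short of the threshold. Repo had 27.0, 27.4 and 24.1 CPM in ez731, against 38.8, 45.8 and 42.7 CPM in w1118. No library overlapped, and repo fell by 0.65 on the log2 scale (SE 0.08, adjusted p = 0.00016). It was the only call of 10, where 28.9% of all genes were called. The count depended on psch27 replicate 1, a library of another group that enters the fit through the shared estimate of spread. Without it 6 genes passed at nearly the same log2 changes: repo, moody (-0.16, adjusted p = 0.038), Gli (-0.19, adjusted p = 0.033), wrapper (-0.21, adjusted p = 0.035), Eaat2 (0.19, adjusted p = 0.026) and Gs2 (0.36, adjusted p = 0.0029).

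Of these, Gs2 had 353, 392 and 409 CPM in ez731, against 343, 305 and 285 CPM in w1118, so that every ez731 library was above every control. Wrapper had 27.0, 28.2 and 27.1 CPM in ez731, against 31.4, 33.0 and 34.4 CPM in w1118, again apart. Gcm, Eaat1, nrv2 and loco had log2 changes of 0.09, -0.18, -0.03 and -0.14 and did not pass in either fit. The neuronal genes moved the other way from repo in these libraries: 8 of 13 rose and 0 fell (61.5%, against 28.9% of all genes). Their sums were 2670 to 3000 CPM in ez731 and 2310 to 2550 CPM in w1118. Eggshell and yolk genes summed to 91.5 to 1320 CPM in ez731 against 7.84 to 29.6 CPM in w1118, and the part of either in the level of repo was not tested.

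Among the wider lists in ez731, 3 of 6 Moody signalling genes rose, Pka-C1 (0.48 ± 0.09, adjusted p = 0.0014), Gbeta13F and pins. Of 18 septate junction genes 4 rose and 2 fell, with the claudin gene sinu at -0.42 ± 0.07 and dlg1 at 0.32 ± 0.07. Ncc69 (0.35 ± 0.07) and alrm (0.20 ± 0.07) rose among 10 transport genes. Pnt fell by 0.20 ± 0.07 among the regulators and Egfr by 0.28 ± 0.09 among the growth genes. Against 28.9% of all genes, the shares called were 50% for Moody signalling, 33.3% for junctions, 20% for transport, 16.7% for regulators and 8.33% for growth. Of the 5 relatives only nrv3 passed, with a rise of 0.36 ± 0.09 (adjusted p = 0.012).

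The libraries labelled psce22 showed another pattern, with repo not called, the transmitter genes Eaat1 and Gs2 lower and loco higher. Repo had 46.2 and 50.0 CPM in psce22, against 38.8, 45.8 and 42.7 CPM in w1118 (a log2 change of 0.13 ± 0.09, adjusted p = 0.25). Both psce22 libraries were above all controls, though repo did not pass. Eaat1 had 165 and 130 CPM in psce22, against 247, 227 and 207 CPM in w1118 (a log2 change of -0.67 ± 0.14, adjusted p = 0.0050). Gs2 had 224 and 208 CPM in psce22, against 343, 305 and 285 CPM in w1118 (a log2 change of -0.58 ± 0.20, adjusted p = 0.040). Both genes of glutamate handling were thus below all controls in both libraries. Loco had 125 and 129 CPM in psce22, against 77.1, 89.0 and 81.3 CPM in w1118 (a log2 change of 0.58 ± 0.12, adjusted p = 0.0049). Wrapper fell, with 26.5 and 28.1 CPM in psce22 against 31.4 to 34.4 CPM in w1118 (a log2 change of -0.32 ± 0.08, adjusted p = 0.012). Eaat2 rose, with 68.4 and 57.2 CPM in psce22 against 47.8 to 51.5 CPM in w1118 (a log2 change of 0.29 ± 0.10, adjusted p = 0.032).

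The 5 calls of 10 in psce22 compare with 39.6% of all genes called. With 2 libraries the count depended on each: it was 2 without psce22 replicate 1 and 1 without psce22 replicate 2, and 3 without w1118 replicate 1 or 2. The call of Gs2 was lost with no filter (adjusted p = 0.056), with a replicate block (adjusted p = 0.071), without either psce22 library and without w1118 replicate 1 or 2 (adjusted p = 0.072 to 0.21). That of Eaat2 was lost with the block (adjusted p = 0.064), without psce22 replicate 1 and without any 1 of the w1118 libraries, and that of wrapper without either psce22 library. Without psce22 replicate 2 Eaat1 (adjusted p = 0.081) and loco (adjusted p = 0.053) also fell short, while without psch27 replicate 1 the count stayed at 5. Muscle genes summed to 36600 and 38800 CPM in psce22 against 42700 to 44000 CPM in w1118, and neuronal genes to 2650 and 2660 CPM against 2310 to 2550 CPM. The part of these in the glial changes was not tested. Among the wider lists, 3 of 6 regulators rose, zfh1 with 0.55 ± 0.11, and 4 of 12 growth genes rose, the FGF pathway adaptor stumps with 0.65 ± 0.11. Of 18 junction genes 5 rose and 1 fell, Mcr with 0.51 ± 0.11 and scrib with -0.99 ± 0.21. Of 10 transport genes 3 rose and 4 fell, the trehalose transporter gene Tret1-1 with 1.72 ± 0.50 and Mdr65 with -0.89 ± 0.16. Galphai rose by 0.43 ± 0.08 among 6 Moody signalling genes, and Tre1 by 0.36 ± 0.07 among the relatives. The share called was 70% for transport and 50% for regulators, and for the other glial lists it was below the 39.6% of all genes.

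The 3 libraries labelled psch27 did not form a single group in the glial genes. Gs2 had 233 CPM in replicate 1 and 404 and 424 CPM in replicates 2 and 3, against 285 to 343 CPM in w1118. Loco had 118 CPM in replicate 1 and 84.0 and 79.2 CPM in replicates 2 and 3, against 77.1 to 89.0 CPM in w1118. Eaat2 had 66.4 CPM in replicate 1 and 52.1 and 51.8 CPM in replicates 2 and 3, against 47.8 to 51.5 CPM in w1118. In each of these genes replicate 1 lay near the libraries labelled psce22. The 1 call of 10 was wrapper, with 27.5, 28.1 and 25.3 CPM in psch27 against 31.4, 33.0 and 34.4 CPM in w1118 (a log2 change of -0.28 ± 0.07, adjusted p = 0.040), where 7.49% of all genes were called. Wrapper did not pass without psch27 replicate 3 or without any 1 of the w1118 libraries. Without psch27 replicate 1 wrapper stayed called (adjusted p = 0.039) and Gs2 passed as higher in psch27, with a log2 change of 0.44 (adjusted p = 0.0046). Repo had 42.3, 35.6 and 39.8 CPM in psch27 and a log2 change of -0.10 ± 0.08 (adjusted p = 0.51).

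Few genes of the wider lists passed in psch27. The junction gene dlg1 rose by 0.28 ± 0.07 and Ncc69 by 0.35 ± 0.07, and Tre1 rose by 0.29 ± 0.06 among the relatives. As shares called, junctions stood at 5.56%, transport at 10% and relatives at 20%, against 7.49% of all genes. With edgeR 0 of 6 regulators, 0 of 12 growth genes and 0 of 6 Moody signalling genes passed, with 1, 1 and 2 of them at an unadjusted p under 0.05.

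In the libraries labelled SppsG8810, repo and wrapper were lower. Wrapper had 24.4, 26.4 and 25.0 CPM in SppsG8810, against 31.4, 33.0 and 34.4 CPM in w1118. The groups were well apart, with a log2 change of -0.38 ± 0.07 (adjusted p = 0.0069). Repo had 37.7, 34.4 and 32.2 CPM in SppsG8810, against 38.8, 45.8 and 42.7 CPM in w1118 (a log2 change of -0.29 ± 0.08, adjusted p = 0.046). These 2 calls of 10 compare with 8.86% of all genes called. The call of repo was close to the threshold, and it was lost without any 1 of the SppsG8810 libraries (adjusted p = 0.054 to 0.19) and without w1118 replicate 2 or 3. The other 8 genes had log2 changes from -0.22 ± 0.18 for gcm to 0.17 ± 0.18 for Gs2, and Eaat2 (0.17) passed with only the groups compared (adjusted p = 0.028). In the wider lists sinu fell by 0.47 ± 0.07, cora by 0.23 ± 0.07 and Mdr65 by 0.85 ± 0.14, and Ncc69 rose by 0.24 ± 0.06. The shares called were 11.1% for junctions and 20% for transport, against 8.86% of all genes. With edgeR 0 of 6 regulators, 0 of 12 growth genes, 0 of 6 Moody signalling genes and 0 of 5 relatives passed, with 0, 1, 2 and 1 of them at an unadjusted p under 0.05. Neuronal genes summed to 2420 to 2570 CPM in SppsG8810 and 2310 to 2550 CPM in w1118.

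**Figure D3:**
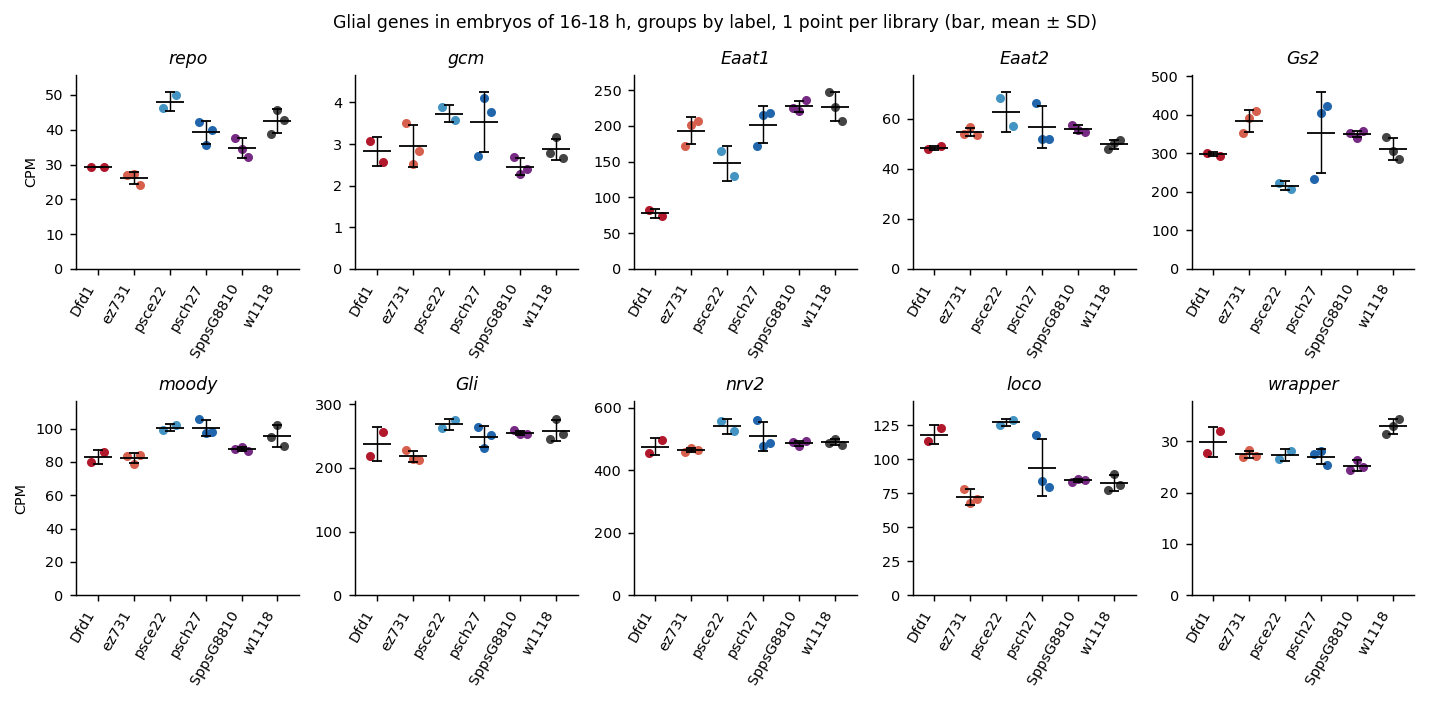
Levels of the 10 glial genes in embryos of 16-18 h by label, in CPM from 0, with 1 point per library (Dfd1 and psce22, 2 each; ez731, psch27, SppsG8810 and w1118, 3 each) and bars for mean ± SD. Repo is lowest in Dfd1 and ez731, Eaat1 lowest in Dfd1, loco highest in psce22 and Dfd1, and psch27 replicate 1 stands apart from the other psch27 libraries in Gs2 and loco.

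Direct comparisons between the mutant groups of 16-18 h, which do not use the w1118 libraries as reference, showed which of these patterns differed from each other. Over the 10 pairs of labelled groups and 10 glial genes, 41 of 100 tests passed. By pair, 2.15% to 60.9% of all genes were called. The pairs share groups, so their tests are not independent of each other. Repo passed in 7 pairs: it was lower in Dfd1 than in psce22 (log2 change -0.83 ± 0.10, adjusted p = 0.00011), psch27 (-0.59 ± 0.09, adjusted p = 0.00029) and SppsG8810 (-0.41 ± 0.09, adjusted p = 0.0026). It was also lower in ez731 than in psce22 (-0.78 ± 0.09, adjusted p = 8.6e-05), psch27 (-0.54 ± 0.08, adjusted p = 0.00059) and SppsG8810 (-0.36 ± 0.08, adjusted p = 0.0068), and higher in psce22 than in SppsG8810 (0.42 ± 0.09, adjusted p = 0.0051). Between Dfd1 and ez731, the groups with the lowest repo, the difference was -0.05 ± 0.09 (adjusted p = 0.67). The 6 calls of repo that involve Dfd1 or ez731 held in every alternative, and that between psce22 and SppsG8810 was lost without psce22 replicate 2 (adjusted p = 0.059).

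Eaat1 also passed in 7 pairs, among them all 4 with Dfd1, where it was lower by 1.03 ± 0.16 than in psce22 up to 1.71 ± 0.15 than in SppsG8810 on the log2 scale. Eaat2 passed in the same 4 pairs alone, lower in Dfd1 by 0.37 to 0.49, and with total-count scaling it kept the call against psce22 alone. Moody passed in 6 pairs, lower in Dfd1 than in each other group and lower in ez731 than in psce22 and psch27, though with total-count scaling it was 0.01 in Dfd1 against ez731 and not called against SppsG8810 (adjusted p = 0.32). Loco passed in 5 pairs, higher in Dfd1 (0.50 ± 0.12, adjusted p = 0.0036) and in psce22 (ez731 against psce22, -0.72 ± 0.12, adjusted p = 0.00072) than in ez731. Gs2 and nrv2 passed in 4 pairs each and Gli in 3, and with total-count scaling none of those of nrv2 and Gli with Dfd1 held. Gcm passed in 1 pair, psce22 above SppsG8810 (0.55 ± 0.20, adjusted p = 0.041), a call lost without any 1 of the libraries compared. The calls of Eaat1 with Dfd1 held in every alternative.

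Wrapper passed in 0 of 10 pairs, with log2 differences from -0.09 to 0.17, although it was called lower than w1118 in 4 of the 5 comparisons. By pair, 7 of 10 genes passed in Dfd1 against SppsG8810 (55.0% of all genes called) and 6 each in Dfd1 against ez731 (60.9%), psce22 (32.2%) and psch27 (47.3%). In ez731, 5 passed against psce22 (51.8%), 3 against psch27 (26.4%) and 1 against SppsG8810 (26.1%), and in psce22, 5 passed against SppsG8810 (43.1%) and 2 against psch27 (12%). Between psch27 and SppsG8810 0 of 10 passed with edgeR, where 2.15% of all genes were called, with 3 at an unadjusted p under 0.05 (repo, gcm and moody) and 0 called by DESeq2. Leaving out psch27 replicate 1 brought the 41 calls to 53, and leaving out Dfd1 replicate 1 to 28.

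**Figure D4:**
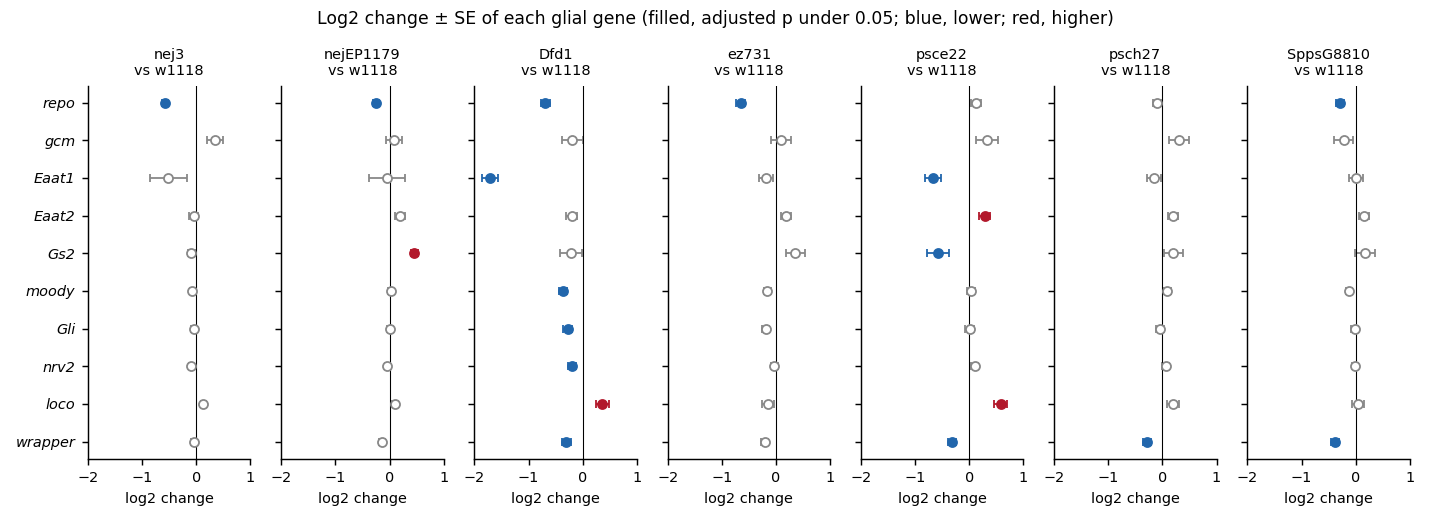
Log2 change ± SE of each glial gene against w1118 of the same age, 1 panel per labelled mutant group (filled points, adjusted p under 0.05; blue lower, red higher, open not called). Repo is filled as lower in 5 panels, wrapper in 4, and Eaat1 reaches -1.71 in Dfd1.

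Set side by side, repo was called lower than w1118 in 5 of the 7 mutant groups, nej3, nejEP1179, Dfd1, ez731 and SppsG8810, and wrapper in 4, Dfd1, psce22, psch27 and SppsG8810. Eaat1 was called lower in 2, Dfd1 and psce22, and loco higher in the same 2. Several of these calls were lost in some alternative fits. They were repo in SppsG8810, wrapper in Dfd1, psce22 and psch27, Eaat1 in psce22, and loco in Dfd1 and psce22. The groups of 16-18 h also share their controls and carry labels in doubt. In both ages the levels of Eaat1 and loco ran in opposite directions across libraries, with a Pearson r of -0.84 over the 12 libraries of 14-16 h and -0.71 over the 16 of 16-18 h. Repo ran with nrv2 at 14-16 h (r = 0.91) and with moody (r = 0.85) and Gli (r = 0.84) at 16-18 h. These correlations of log2 CPM describe libraries that share group and scaling, and they are given without a test.

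Among 8045 genes with a mean of at least 5 CPM at 14-16 h, those most like repo over the 12 libraries were CG7227, Wnt5, kra, CR45822 and mal, with r from 0.965 to 0.974. Among 8395 such genes at 16-18 h, they were ara, CG31176, pnr, TwdlW and TwdlG over 16 libraries, with r from 0.928 to 0.949. No gene was in both lists, and no other glial gene was in either.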

How the data were processed

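Messenger RNA was measured in 28 libraries of pooled embryos. For each age the authors deposited a table of raw counts per gene from featureCounts, after STAR alignment to dm6, with versions and strand setting not stated. Their DESeq2 tables per mutant also hold fold changes and adjusted p-values, which were not used, and a mean normalised signal (baseMean), which the authors computed and which served here only to find the columns each table came from (70 and 364 sets of columns tried, median relative difference at most 8.9e-16 for the best).

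Samples were grouped by label. Genes low in counts were removed with filterByExpr, leaving 10397 and 11366, libraries were scaled with TMM, and each table was fitted once with edgeR 4.0.16 (robust glmQLFit, group only; two-sided glmQLFTest; Benjamini-Hochberg over all genes; threshold 0.05). The code was tested on simulated data. Exon lengths and overlaps came from Ensembl annotation of dm6, positions of 10 of 10 genes. Correlations used log2 CPM with a prior count of 2. Genes were named by rule: the 10 glial genes, 5 relatives, up to 4 genes of each list by smallest adjusted p, and the 5 most like repo. The mutated genes nej, E(z) and Psc were named as checks of the labels. The transcripts lncRNA:roX1 and lncRNA:roX2 and the overlapping neighbours were added after values were seen. The members and lists were chosen with earlier results of these data known. Alternatives were RLE size factors, no filter, DESeq2 1.42.0, fits restricted to the groups compared, a replicate block, each library left out, and, added after seeing the data, total-count scaling and leaving out psch27 replicate 1 from the other contrasts. No replicates were copies (chi-square per degree of freedom 2.94 to 139 over 32 pairs). R 4.3.3, limma 3.58.1, Python 3.11.15 and matplotlib 3.10.9 were used. No sequences are given.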

Additional observations from a re-analysis of the deposited data

Results flagged for a closer look

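Between the alleles of nej, the changes of 2 glial genes differed by a direct test in edgeR. Repo differed with a log2 change of -0.33 (nej3 against nejEP1179, adjusted p = 0.00088) and was lower in both alleles than in w1118. Gs2 differed with a log2 change of -0.55 (adjusted p = 0.00011) and was above w1118 in nejEP1179 alone.

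Between the groups labelled psce22 and psch27, the changes of Eaat1 and Gs2 differed. Eaat1 had a log2 change of -0.51 (psce22 against psch27, adjusted p = 0.043) and Gs2 of -0.78 (adjusted p = 0.041). Both calls were lost without psce22 replicate 1 or 2 or psch27 replicate 2 or 3 (adjusted p = 0.084 to 0.32 for Eaat1 and 0.11 to 0.31 for Gs2), and with a replicate block (adjusted p = 0.094 each). They rest on groups whose labels are in doubt, with psch27 replicate 1 near psce22 at 172 CPM of Eaat1 and 233 CPM of Gs2.

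No library stood apart by Dixon's test from the other 3 of its group in any glial gene. The test covered 30 combinations of gene and group at 14-16 h, with 4 libraries each, where chance gives about 1 in 20. These combinations share libraries. The test looks for 1 library apart, so it does not address the division of Eaat1 within nej3.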

How the results depend on the processing

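The calls of repo in nej3, nejEP1179, Dfd1 and ez731, of Gs2 in nejEP1179, of Eaat1 and moody in Dfd1 and of wrapper in SppsG8810 held in every alternative run. Counts of glial genes called out of 10 moved as follows. In nej3 the count of 1 was 2 with DESeq2, with total-count scaling and with only the groups compared, and 1 to 2 with a library left out. In nejEP1179 the count of 2 was 3 with total-count scaling or only the groups compared. In nejEP1179 and between the nej alleles the count was 2 to 3 with a library left out. In Dfd1 the count of 7 was 4 with total-count scaling, 5 with only the groups compared, 6 with no filter (nrv2 lost) and 4 to 9 with a library left out. In ez731 the count of 1 was 4 with total-count scaling, 5 with only the groups compared and 1 to 6 with a library left out. In psce22 the count of 5 was 1 to 5 with a library left out. In psch27 the count of 1 was 0 with RLE size factors, no filter or only the groups compared, and 0 to 2 with a library left out. In SppsG8810 the count of 2 was 1 with RLE size factors, no filter or total-count scaling, 3 with only the groups compared, and 1 to 2 with a library left out. The 41 calls between mutant groups were 34 with total-count scaling, 34 with no filter, 33 with a replicate block and 28 to 53 with a library left out.

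Same-numbered libraries deviated with a mean r of -0.02 over 12 pairs at 14-16 h and 0.06 over 36 pairs at 16-18 h. Pairs of other numbers had 0.01 and -0.03. With few libraries per group and labels in doubt at 16-18 h, these values cannot settle whether the numbers pair libraries. With a replicate block the counts were 6 in Dfd1 (loco lost, adjusted p = 0.058), 2 in ez731, 3 in psce22 and 1 in SppsG8810, and Eaat1 and Gs2 were not called between psce22 and psch27 (adjusted p = 0.094 each).

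Most log2 changes that changed sign were near 0 and not called. With total-count scaling moody was -0.02 and Gli -0.03 in nejEP1179, and in Dfd1 against ez731 moody was 0.01 and nrv2 0.04, where both had been called lower. Nrv2 was 0.01 in ez731 with RLE size factors and 0.01 in SppsG8810 with RLE size factors, no filter or DESeq2. With a library left out the ranges were -0.14 to 0.03 for Eaat2 in nej3, -0.01 to 0.07 for loco between the nej alleles, and in nejEP1179 -0.12 to 0.19 for gcm, -0.24 to 0.10 for Eaat1, -0.02 to 0.05 for moody and -0.03 to 0.04 for Gli. They were -0.02 to 0.18 for gcm and -0.05 to 0.01 for nrv2 in ez731, -0.03 to 0.08 for moody and -0.02 to 0.07 for Gli in psce22, -0.07 to 0.01 for Gli in psch27, and -0.05 to 0.04 for Gli and -0.03 to 0.01 for nrv2 in SppsG8810.

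Genes called among all tested moved by over 1.5 times in psce22 (4500, and 802 without psce22 replicate 2), psch27 (851, and 60 with only the groups compared) and SppsG8810 (1007, and 2783 with only the groups compared), and between the nej alleles (967, and 563 with only the groups compared). The causes were not tested. Groups of 2 and 3 libraries and the low counts of gcm limit what could be called.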
